A study of Mus musculus with 48 samples.

Results

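The tumor response of FoxP1SkmKO skeletal muscle was examined in all 24 libraries of that genotype, out of 48 libraries in the series. Members were chosen by genotype and condition alone, as 12 libraries from KPC mice and 12 from control mice, and the contrast took circadian time as a covariate. KPC is a murine pancreatic cancer cell line, and KPC mice received 250000 of these cells in 50 µl by orthotopic injection into the pancreas, whereas control mice had a sham injection of PBS. Poly(A) RNA of the tibialis anterior, a hindlimb muscle made mostly of fast fibers, was sequenced every 4 h from circadian time CT18 to CT38 (6 times), with 2 mice per condition and time, so that each library came from a separate animal. All 24 mice were males labelled homozygous for the floxed FoxP1 allele and carrying ACTA1-Cre, aged 39 to 55 weeks and kept in constant darkness, given as 18 h, around collection. The ACTA1 promoter that drives Cre is active in skeletal muscle fibers, so the other cells of the muscle keep Foxp1 in this model. The 24 WT libraries, used here only for comparison, cover the same times and conditions and are described in the series as floxed mice without Cre, though their strain label reads C57BL/6J.

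Cancer cachexia is a wasting syndrome in which muscle fibers break down protein faster than they make it. Known mediators include inflammatory cytokines that signal through JAK kinases and STAT3, glucocorticoids, and myostatin and activin ligands, which together raise ubiquitin ligases such as Fbxo32 (atrogin-1) and Trim63 (MuRF1) and genes of autophagy. FoxP1 is a forkhead transcription factor that acts mainly as a repressor, and the related FoxO factors activate the ubiquitin ligase genes in wasting fibers.

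Total counts per FoxP1SkmKO library ranged from 14480867 to 20223410 (median 16940430), and 15284 genes were tested. Replicate mice differed by 7.56 to 17.4 times the sampling noise of their counts, so no library was a copy of its replicate. The median standard error of a log2 fold change was 0.08. Foxp1 itself (chr6:98902299-99499682, minus strand, mm39) had 5.98, 8.14 and 8.88 CPM (counts scaled to a fixed library size; lowest, median and highest of 12) in FoxP1SkmKO control mice and 6.02, 8.50 and 13.5 CPM in WT control mice. The genotypes overlapped, with a log2 difference of -0.11 (SE 0.07, edgeR adjusted p = 0.51), so the count over the whole gene did not set them apart. That count could include exons outside the deleted part and RNA of cells without Cre, and the part of either was not tested. Counts by exon were not analysed here, so genotypes are named as labelled. KPC mice of the knockout had 5.79, 7.36 and 9.13 CPM of Foxp1, and its log2 fold change between conditions was -0.09 (SE 0.08, adjusted p = 0.749). Muscle identity was checked first: the summed FPKM of 10 fiber markers, among them Acta1 and Myh4, lay between 46710 and 58360 in every FoxP1SkmKO library. Of 13 markers of pancreas or KPC epithelium, 5 (Amy2a5, Cldn4, Cpa1, Prss1 and Ptf1a) were at 0 in all 24 libraries. The list still summed to 1.21 to 2.17 FPKM in control libraries (median 1.35). In KPC libraries it summed to 0.872 to 3.77 FPKM (median 1.49), highest in KPC CT26 replicate 2. In 2 libraries, control CT22 replicate 1 and KPC CT18 replicate 2, liver transcripts summed to 84.6 and 279 FPKM, against at most 10.1 in the other libraries of the genotype. In another, control CT18 replicate 2, interferon-induced genes stood far above the rest, as given beside those genes below.

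Over all 6 times, 1 of 15284 genes (0.00654%) passed the threshold, an adjusted p under 0.05 by edgeR's quasi-likelihood test, and it rose. Rhbdf2 (chr11:116488991-116517845, minus strand) encodes iRhom2, the cofactor that carries the sheddase ADAM17 to the cell surface and so controls release of TNF and other membrane-bound ligands. It measured 21.6, 29.0 and 32.4 CPM (lowest, median, highest) in the 12 control mice and 28.1, 35.9 and 42.3 CPM in the 12 KPC mice. The 2 ranges overlapped over all times, but both KPC mice lay above both control mice at each of the 6 times. Its log2 fold change was 0.32 (SE 0.04, 95% interval 0.22 to 0.41, adjusted p = 0.00354). Among all genes tested, 0 (0%) had their 12 KPC libraries all above or all below the 12 control libraries. An unadjusted p under 0.05 was reached by 709 genes toward higher (4.64%) and 886 toward lower (5.8%) in KPC mice, and the median log2 fold change over all genes was 0.00. The call on Rhbdf2 was lost without CT38 (adjusted p = 0.0765) and without the time covariate (0.186).

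Other settings of the fit called more genes. DESeq2 called 92 (0.602%) and the fit of all 48 libraries with 1 coefficient per group called 67 (0.428%), and 51 genes were called by both, 15 higher and 36 lower in KPC mice. Of these 51, 43 kept the same sign at all 6 times. They were chosen by their difference over the same libraries, so this count is a description. The share over all genes is not given here. None but Rhbdf2 passed the test used here, so the values that follow are given as sizes, and these genes were chosen after their values were seen.

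**Figure D1:**
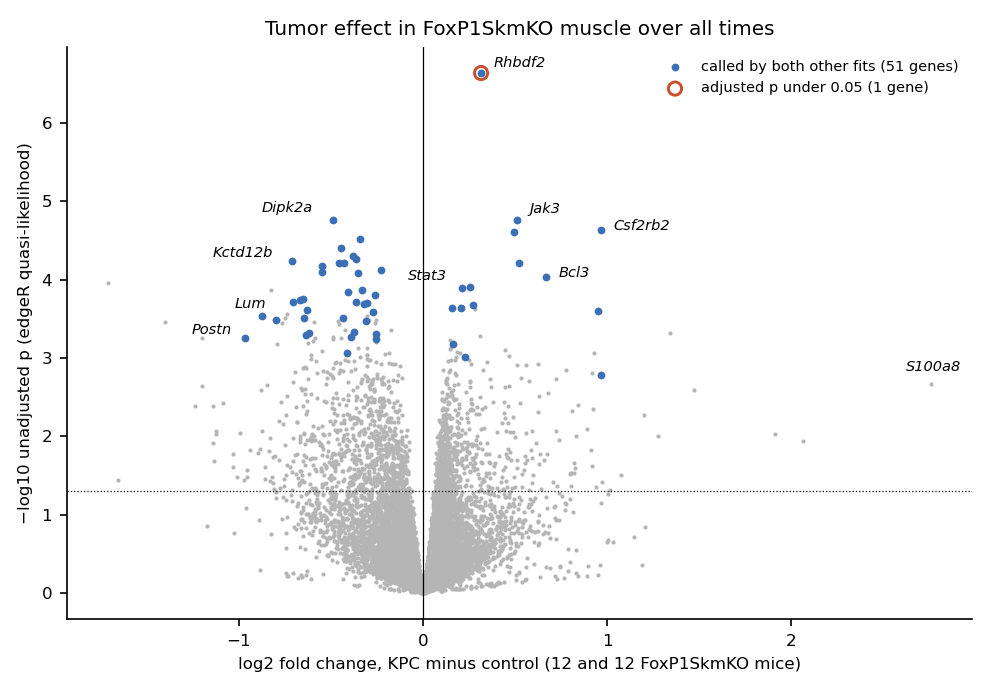
Each point is 1 of 15284 genes in FoxP1SkmKO muscle, with the log2 fold change of KPC over control across all times on the horizontal axis and -log10 of the unadjusted p on the vertical axis. The 51 genes called by both other fits are blue, and Rhbdf2, the gene called here, is ringed at a log2 fold change of 0.32.

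The genes next in rank shared an adjusted p of 0.0733, and 4 of them were toward higher. Jak3, the kinase paired with the common gamma chain of lymphokine receptors, had 13.8, 18.1 and 30.6 CPM in control mice and 17.3, 27.2 and 35.1 CPM in KPC mice (log2 fold change 0.51, SE 0.10). Csf2rb2, a beta chain of the interleukin-3 receptor, had 2.15, 3.11 and 7.47 CPM in control mice and 3.39, 6.6 and 11.3 CPM in KPC mice (0.97, SE 0.18). Il4ra, the interleukin-4 receptor chain, had 5.17, 7.24 and 11.8 CPM in control mice and 6.67, 10.4 and 15.1 CPM in KPC mice (0.52, SE 0.11). All 3 were higher on average at all 6 times, yet their ranges overlapped between conditions. B3gnt3, a glycosyltransferase, had 5.34, 8.08 and 12.1 CPM against 8.25, 12.1 and 15.1 CPM (0.49, SE 0.09), with both KPC mice above both control mice at 5 of 6 times. Counting limits these values, because Csf2rb2 has a near-identical neighbor, Csf2rb (0.95, SE 0.22, adjusted p = 0.103), and B3gnt3 (chr8:72143400-72154433, minus strand) faces Jak3 (chr8:72128940-72143219, plus strand) end to end, and reads could be shared between such neighbors.

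Toward lower, Dipk2a, a secreted or Golgi kinase-like protein, had 5.35, 7.66 and 8.68 CPM in control mice and 3.26, 5.4 and 7.32 CPM in KPC mice (log2 fold change -0.49, SE 0.09, adjusted p = 0.0733). Cd200, a surface glycoprotein that restrains myeloid cells, had 18.2, 22.3 and 24.9 CPM in control mice and 11.2, 18.6 and 20.8 CPM in KPC mice (-0.34, SE 0.07, same adjusted p). For both genes the 2 KPC mice lay below the 2 control mice at 6 of 6 times. The apelin receptor Aplnr (-0.43) and Myct1 (-0.36), genes of endothelium, and Marcks (-0.38), Akap12 (-0.45), Kctd12b (-0.71) and Foxo6os (-0.44) completed that rank. Foxo6os is antisense to Foxo6 (-0.30, adjusted p = 0.173), and without a stated strand setting their reads cannot be told apart.

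**Figure D2:**
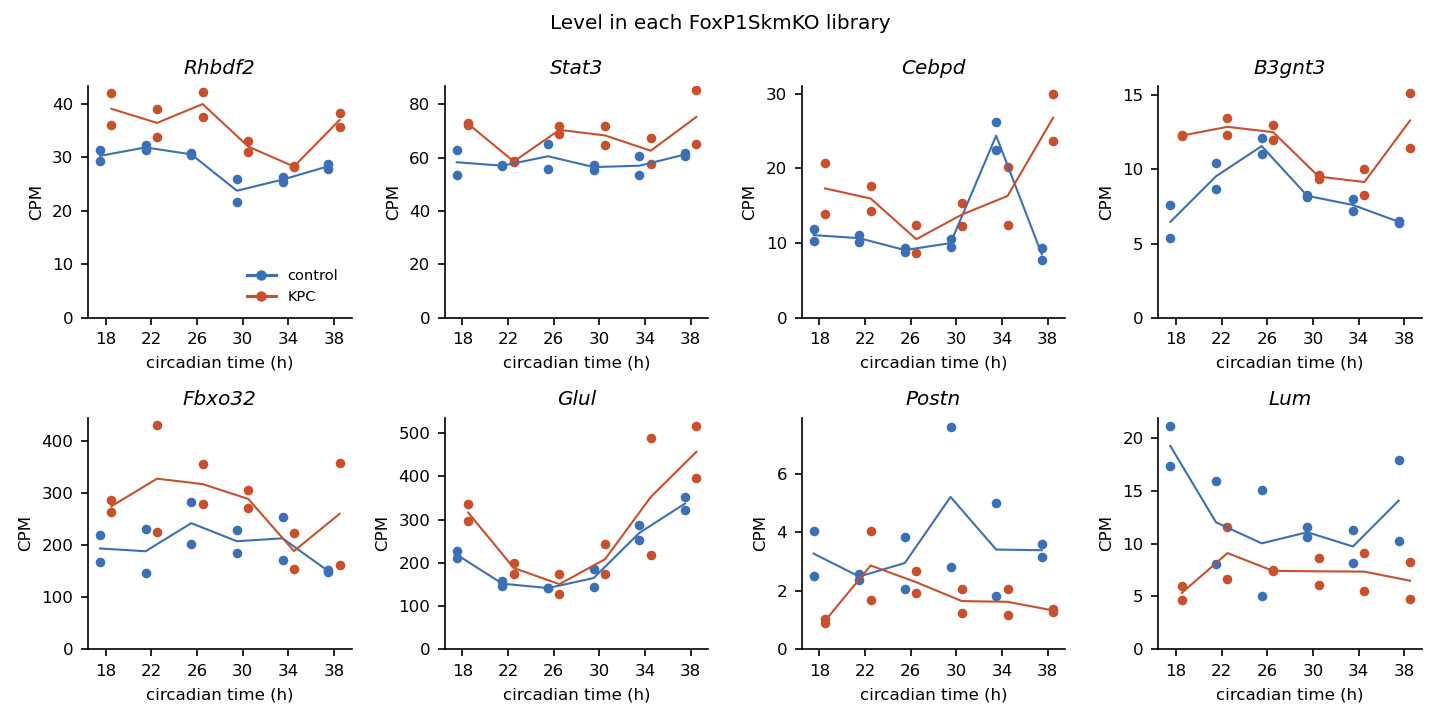
CPM of 8 genes in each of the 24 FoxP1SkmKO libraries by circadian time in hours, with control and KPC mice as points and lines through the mean of the 2 libraries of a group. For Rhbdf2 both KPC points lie above both control points at every time, whereas Postn and Lum show ranges that overlap, with KPC medians of 1.52 and 7.02 against control medians of 2.99 and 11.5 CPM.

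Gene groups were described by 37 pathway lists and 13 lists of cell type markers. No member of any list passed the adjusted threshold by edgeR (0). Over the pathway lists alone, DESeq2 called 21 members and the fit with 1 coefficient per group of all 48 libraries called 19. Both also called members of marker lists. Counts below are therefore of members at an unadjusted p under 0.05, to be read against 4.64% toward higher and 5.8% toward lower over all genes, and medians of log2 fold change against 0.00 for all genes. Unless said otherwise, the members named in these groups were chosen after their values were seen.

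Interleukin-6 and oncostatin signaling, in which gp130 receptors activate JAK kinases and STAT3, had 9 of 32 tested members toward higher and 1 toward lower, with a median of 0.205, and DESeq2 called 4 of them. Stat3, its central transcription factor, had 53.4, 57.3 and 65.3 CPM in control mice and 57.8, 68.1 and 85.3 CPM in KPC mice (log2 fold change 0.21, SE 0.05, adjusted p = 0.0894), with both KPC mice above both control mice at 5 of 6 times. Bcl3, a nuclear IκB protein that STAT3 induces, had 1.12, 1.67 and 3.14 CPM against 1.86, 2.92 and 4.66 CPM (0.67, SE 0.14, adjusted p = 0.0793). The oncostatin receptor Osmr had a fold change of 0.47 (adjusted p = 0.154) and the feedback inhibitor Socs3 of 0.62 (0.227). Lifr, the receptor of leukemia inhibitory factor, lay the other way at -0.14 (0.204). The most expressed members, which the rule for named genes picks, were Stat5b at 0.08 and the shared receptor Il6st (gp130) at 0.07, both with intervals that included 0. The list median stayed between 0.142 and 0.253 when each library was left out in turn. Jak3, whose reads could be shared with B3gnt3, was among the 9 members and among the 4 that DESeq2 called. Cebpd and Lcn2 stand both in this list and in that of glucocorticoid-responsive genes.

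Other inflammatory lists stood near the background. NF-kB and TNF signaling had 1 of 24 members toward higher and 3 toward lower, among them Tnfaip2 (-0.21, adjusted p = 0.154). Complement and coagulation had 1 of 23 toward higher, C4b, which had 2.61, 6.25 and 16.6 CPM in control mice and 3.88, 11.4 and 33.0 CPM in KPC mice (log2 fold change 0.84, SE 0.26, adjusted p = 0.208), and 2 toward lower. The 3 tested metallothionein and zinc importer genes had 0 either way by edgeR at an unadjusted p under 0.05 and 0 called by DESeq2, with Mt1 at 0.07.

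Among 28 glucocorticoid-responsive genes, 8 were toward higher and 0 toward lower, with a median of 0.192 and 25 values above 0. Glul, the glutamine synthetase that glucocorticoids induce in muscle, had 141, 198 and 352 CPM in control mice and 128, 230 and 517 CPM in KPC mice (log2 fold change 0.35, SE 0.09, adjusted p = 0.155). Arrdc2, an arrestin-domain gene, had 20.9, 37.8 and 159 CPM against 28.7, 83.2 and 183 CPM (0.63, SE 0.17, adjusted p = 0.155). Both were higher on average at all 6 times, within ranges that overlapped widely. Map3k6 (0.53), Foxo3 (0.15) and Klf15 (0.21) lay on the same side. Pdk4, which inhibits pyruvate dehydrogenase, and the triglyceride lipase Pnpla2, both named by rule, had values of 0.28 (95% interval -0.14 to 0.70) and 0.10 (-0.02 to 0.22). Without each library in turn, 7 to 12 members of the list were toward higher and the median ran from 0.125 to 0.218.

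The ubiquitin ligases of atrophy and their partners gave 10 of 28 members toward higher and 0 toward lower, with a median of 0.07 and 23 values above 0. Fbxo32, the ligase atrogin-1, had 146, 194 and 284 CPM in control mice and 154, 275 and 432 CPM in KPC mice (log2 fold change 0.47, SE 0.14, adjusted p = 0.177). Its value was positive at 5 of 6 times and -0.18 at CT34. Trim63, the ligase MuRF1 that targets thick-filament proteins, had 111, 134 and 156 CPM against 122, 152 and 212 CPM (0.19, SE 0.07, adjusted p = 0.25). Asb2, a ligase subunit that degrades filamin and desmin, had a fold change of 0.16 (adjusted p = 0.133) and was the member that DESeq2 called. Klhl38 (0.40), the translation repressor Eif4ebp1 (0.24) and the large ligase Ubr4 (0.10) were further members toward higher, whereas the abundant Klhl41 was at 0.01. This count held at 10 to 12 when each library was left out.

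Autophagy and mitophagy genes had 5 of 40 toward higher and 0 toward lower (median 0.04), including the initiating kinase Ulk1 (0.19, adjusted p = 0.282) and the cargo receptor Sqstm1 (0.11, adjusted p = 0.325), while the mitophagy kinase Pink1 was at 0.11 (95% interval 0.00 to 0.21). Proteasome subunits had 3 of 48 toward higher and 0 toward lower (median 0.02), led by Psmd4 (0.10, adjusted p = 0.256). The FoxO factors gave Foxo3 at 0.15 and Foxo6 at -0.30, and Foxo4, the most expressed of the forkhead list, at 0.10 (95% interval -0.01 to 0.21).

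All 30 tested collagen chains were below 0, 17 at an unadjusted p under 0.05, and the median log2 fold change was -0.461, with 4 members called by DESeq2. Col1a1 and Col3a1, the main fibrillar chains, had medians of 78.5 and 95.6 CPM in control mice and 37.6 and 54.8 CPM in KPC mice, and fold changes of -0.68 (SE 0.23, adjusted p = 0.247) and -0.70 (SE 0.19, adjusted p = 0.166). Both had ranges that overlapped widely, and for both genes the lowest control value lay below the KPC median. The highest KPC library, KPC CT22 replicate 1, reached 151 and 148 CPM. Col16a1, a fibril-associated chain, had 1.96, 3.79 and 4.79 CPM against 1.4, 2.49 and 3.45 CPM (-0.66, SE 0.15, adjusted p = 0.0996). The basement membrane chains Col4a1 (-0.28, adjusted p = 0.173) and Col4a2 (-0.21, adjusted p = 0.262), which are divergent neighbors that overlap, were the most expressed members and are named by rule.

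Matrix glycoproteins, proteoglycans and crosslinking enzymes followed the collagens, with 28 of 47 members toward lower, 0 toward higher and a median of -0.282. Postn, the matricellular protein periostin of fibroblasts, had 1.81, 2.99 and 7.58 CPM in control mice and 0.891, 1.52 and 4.04 CPM in KPC mice (log2 fold change -0.96, SE 0.24, adjusted p = 0.124). Lum, the proteoglycan lumican, had 5.02, 11.5 and 21.2 CPM against 4.67, 7.02 and 11.6 CPM (-0.79, SE 0.19, adjusted p = 0.103). Hspg2, the basement membrane proteoglycan perlecan, had 261, 317 and 392 CPM against 217, 263 and 372 CPM (-0.26, SE 0.06, adjusted p = 0.0972). Lum and Hspg2 were lower on average at all 6 times and Postn at 5. Aspn had a fold change of -0.43 (adjusted p = 0.103) and Sparcl1 of -0.21 (0.173). Ltbp4, which tethers latent TGF-beta to the matrix and was listed with the myostatin and BMP pathway, had a fold change of -0.35 (0.0745), and Itgbl1 of -0.87 (0.103).

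Markers of the stromal cells that make matrix stood on the same side. Of 10 fibro-adipogenic cell markers, 7 were toward lower and 1, Ly6a (0.31), toward higher, with a median of -0.394, and Dcn and Gsn, the most expressed, were at -0.52 (adjusted p = 0.204) and -0.40 (0.298). Their summed level ran from 107 to 248 FPKM in control mice (median 169) and from 93.1 to 231 FPKM in KPC mice (median 136). Lum stands in both lists. Tendon markers had 3 of 6 toward lower (median -0.459), smooth muscle and pericyte markers 4 of 9 (median -0.24, Rgs5 at -0.25), and endothelial markers 4 of 13 (median -0.09, Cdh5 at -0.16). In bulk muscle, fewer cells of a type and less RNA per cell cannot be told apart, and the part of these cells in the collagen values was not tested.

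The collagen and stromal values varied strongly among mice of the same condition. Summed collagen FPKM ran from 59.3 to 157 in control mice (median 107) and from 54.6 to 161 in KPC mice (median 70.5), and KPC CT22 replicate 1 was the highest KPC library for collagens, for fibro-adipogenic markers (231 FPKM) and for Schwann cell markers (31.0 FPKM). Without that library the collagen median was -0.55, and 154 genes over the whole table passed the threshold, as against 1 with it. Leaving out each library in turn kept the collagen median between -0.55 and -0.396, with 16 to 20 of 30 members toward lower.

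Schwann cell markers, which mark the myelin of intramuscular nerve, had 5 of 8 members toward lower, 0 toward higher and a median of -0.393. Prx, the myelin protein periaxin, had 6.78, 8.55 and 11.9 CPM in control mice and 3.76, 5.95 and 11.2 CPM in KPC mice (log2 fold change -0.43, SE 0.13, adjusted p = 0.204), and Pmp22 was at -0.27 (0.348). By time, from CT18 to CT38, the list medians were -0.28, 0.13, -0.44, -0.83, -0.79 and 0.03.

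Interferon-gamma-induced GTPases, effectors of cell-autonomous defense, had 1 of 15 members toward higher, 0 toward lower and a median of 0.139. That member was Gbp4, with 7.33, 10.2 and 39.3 CPM in control mice and 9.45, 21.7 and 33.5 CPM in KPC mice (log2 fold change 0.57, SE 0.28, adjusted p = 0.473). Irgm2 and Gbp9, the most expressed members, were at -0.03 (95% interval -0.48 to 0.42) and 0.03 (-0.23 to 0.28). Gbp4 overlaps Gbp9 and Irgm2 overlaps Igtp on the genome, so their counts are not independent. The GTPases summed to a median of 26.7 FPKM in control mice and 37.9 FPKM in KPC mice, but control CT18 replicate 2 reached 130.5 FPKM, with the next control library at 50.9 and the highest KPC library at 69.5 FPKM. Without that control mouse the median was 0.314 and 5 of 15 members were toward higher, and still 0 were called by edgeR. Without the other control mouse of that time, CT18 replicate 1, the median was 0.054 with 0 toward higher, and leaving out each of the remaining libraries gave medians between these.

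Antigen presentation by MHC class I followed the GTPases. Its 19 members had 0 toward higher and 0 toward lower at an unadjusted p under 0.05 by edgeR, 0 called by DESeq2, and a median of 0.172. H2-K1 and H2-D1, class I heavy chains, both had a log2 fold change of 0.17, with 95% intervals of -0.16 to 0.50 and -0.09 to 0.44. The list summed to 377 FPKM in control CT18 replicate 2 against at most 259 FPKM in the other control libraries and 245 FPKM in KPC libraries. Without that library 8 of 19 members were toward higher and the median was 0.271, whereas without KPC CT22 replicate 2 the median was 0.103 with 0 toward higher. Type I interferon-stimulated genes had a median of -0.06 with it and 0.00 without it, with 1 of 31 toward lower in the former, Rtp4 (-0.30).

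Genes of energy metabolism lay near 0. Of 80 nuclear genes of the respiratory chain, 1 was toward lower, Cycs (cytochrome c, -0.12), and 0 toward higher, but 66 values were at or below 0 and the median was -0.03. Atp5b, a subunit of ATP synthase, was at -0.02, and all 13 mitochondrially encoded genes were below 0 (median -0.06) with 0 at an unadjusted p under 0.05 by edgeR and 0 called by DESeq2. Tricarboxylic acid cycle genes had 2 of 30 toward higher and 2 toward lower, glycolysis 2 of 24 and 1, glycogen metabolism 1 of 23 and 2, and fatty acid oxidation 1 of 39 and 1. Lipid and sterol synthesis had 2 of 31 each way, with the acetyl-CoA carboxylase Acacb at 0.13 (adjusted p = 0.317) and the stearoyl-CoA desaturase Scd2 at -0.41 (0.15). The most abundant glycolytic gene, Aldoa (ENSMUSG00000030695), was at 0.09 (adjusted p = 0.282), and Eno3, the muscle enolase, at -0.01. The 95% interval of Eno3 was -0.08 to 0.07.

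Contractile genes gave small values toward higher among those of fast fibers, 4 of 17 members with 0 toward lower and a median of 0.05. Mylk2, the skeletal muscle myosin light chain kinase, had 939, 1177 and 1461 CPM in control mice and 1161, 1416 and 1646 CPM in KPC mice (log2 fold change 0.27, SE 0.06, adjusted p = 0.0996), with both KPC mice above at 5 of 6 times. Actn3 was at 0.17 (adjusted p = 0.167), Mybpc2 at 0.13 (0.204) and the fast calcium pump Atp2a1 at 0.10 (0.204), while the fast myosin heavy chain Myh4 was at 0.02 (95% interval -0.07 to 0.11). Of 12 slow-fiber genes 1 was toward higher, the slow myosin Myh7 (0.94, SE 0.44, adjusted p = 0.455), whose KPC libraries ran from 2.96 to 38.8 CPM. The 28 genes of calcium release and excitation coupling had 5 toward higher, among them the release channel Ryr1 (0.15, adjusted p = 0.311), and 1 toward lower. Among developmental and stress-induced sarcomere genes, Des (0.16) and Nrap (0.12) were toward higher and the cardiac actin Actc1 (-0.71, SE 0.29, adjusted p = 0.349) toward lower, out of 17.

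Over all times, genes of denervation and muscle growth stayed near 0 with a few exceptions. Hdac4, the deacetylase that carries the denervation signal to the nucleus, had 42.2, 51.7 and 64.2 CPM in control mice and 53.1, 65.1 and 73.1 CPM in KPC mice (log2 fold change 0.25, SE 0.06, adjusted p = 0.0894), and was the 1 of 20 members of its list toward higher. The acetylcholine receptor subunit Chrnb1 was at 0.10 (95% interval -0.10 to 0.30). From CT18 to CT38, the medians of this list were -0.0189, -0.105, 0.366, 0.355, 0.0187 and -0.116. Toward higher were 1, 0, 4, 6, 0 and 0 of its 20 members, and toward lower 3, 0, 0, 0, 2 and 3. Over all 15284 genes, 647 and 587 were toward higher at CT26 and CT30, and 514 toward lower at CT38. Myogenic regulators had 1 of 14 toward lower, Myf5 of satellite cells (-0.38, adjusted p = 0.372), and the myostatin, activin and BMP list had 4 of 33 toward higher, including Smad3 (0.17) and the myostatin inhibitor Wfikkn2 (0.18), and 4 toward lower, including Ltbp4. Insulin, IGF1 and mTOR genes had 6 of 35 toward higher, with the insulin receptor Insr at 0.13 (adjusted p = 0.173), and 4 toward lower, with Irs1 at -0.14 (0.303) and Igfbp5 at -0.16 (0.328). Akt2, the other member named by rule, was at 0.05 (95% interval -0.05 to 0.16).

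Over all times, stress and housekeeping lists had small medians. Chaperones had 4 of 31 toward higher (Hsp90ab1 at 0.09), the integrated stress response 4 of 21 toward higher, with its transcription factor Atf4 at 0.12 (adjusted p = 0.237), and 1 toward lower, and immediate early genes 1 of 24 each way. Amino acid genes had 3 of 25 toward higher, Glul and Klf15 among them, and 2 toward lower, with Gatm, the first enzyme of creatine synthesis, at -0.47 (adjusted p = 0.155). Hypoxia genes had 2 of 21 and 1, with Vegfa at 0.05, and 13 polyamine genes and 74 cytosolic ribosomal protein genes had 0 either way at an unadjusted p under 0.05 by edgeR and 0 called by DESeq2.

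Core clock and clock-output genes had 6 of 23 toward higher and 1 toward lower, with a median of 0.04. The nuclear receptor Rora, an activator of Bmal1 transcription, was at 0.18 (SE 0.05, adjusted p = 0.155) and the repressor Nfil3 at 0.32 (SE 0.09, adjusted p = 0.165). Rora was higher on average at 6 of 6 times, and Nfil3 at 5. Per1, which glucocorticoids also induce, was at 0.31 (adjusted p = 0.349), Cry2 at 0.11 and Bhlhe40 at 0.17. Hlf, an activator of the same sites that Nfil3 represses, was at -0.18 (adjusted p = 0.276) and lower on average at 6 of 6 times. Tef and Klf9, the most expressed members, were at 0.04 and 0.07.

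**Figure D3:**
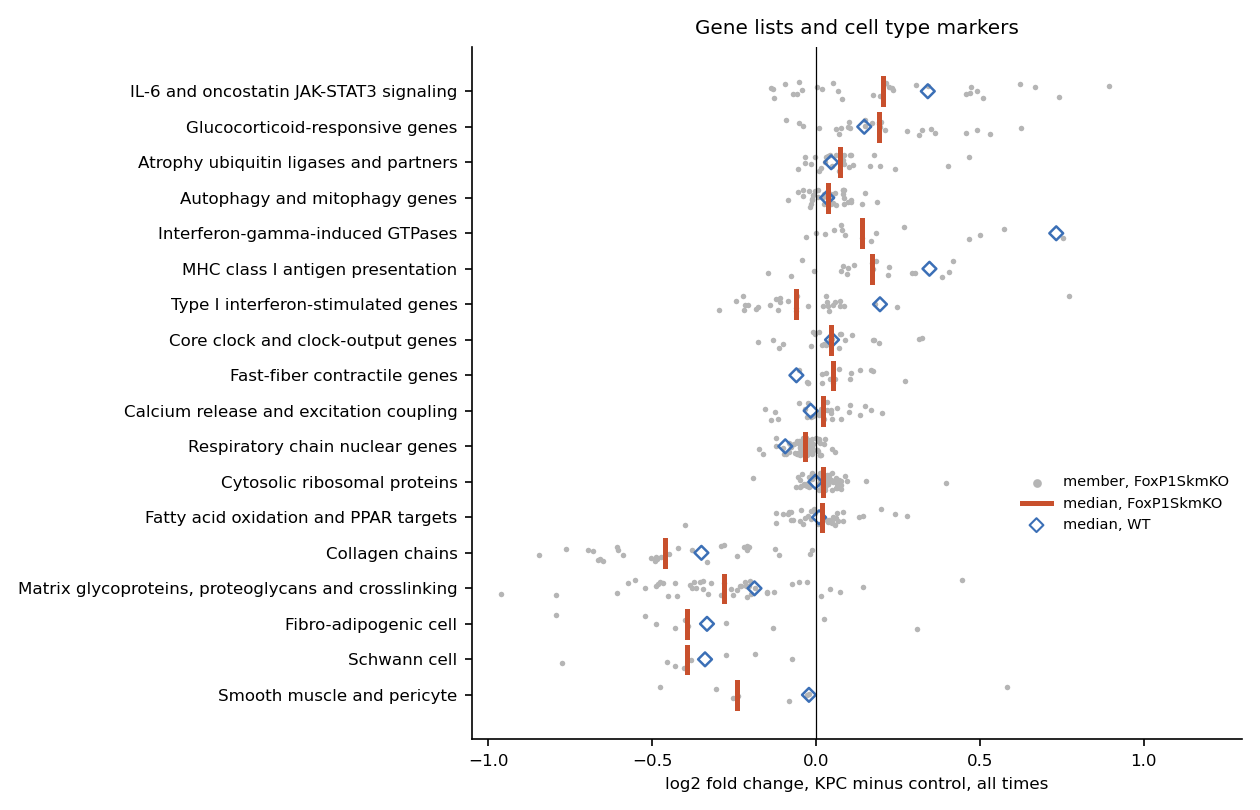
Log2 fold changes of the members of 18 gene lists in FoxP1SkmKO muscle over all times, with points for members, a bar at the list median and a diamond at the median of the same list in the 24 WT libraries. Collagen chains lie wholly below 0 in FoxP1SkmKO muscle (median -0.461), and the GTPases have a median of 0.139 beside 0.733 in WT muscle.

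Neutrophil transcripts were sparse. Of 12 neutrophil markers 4 passed the filter on low counts, and S100a8 and S100a9, which encode calprotectin, were toward higher with fitted log2 fold changes of 2.76 (SE 0.80, adjusted p = 0.173) and 1.91 (SE 0.68, adjusted p = 0.282). Both were at or below 5.10 CPM in every library, with control medians of 0 and 0.112 CPM, so these values rest on few reads. The neutrophil sum reached 23.4 FPKM in KPC CT30 replicate 2, whereas control libraries ran from 0.342 to 3.29 FPKM. Macrophage markers had 1 of 14 toward higher, the scavenger receptor Cd163 (0.29, adjusted p = 0.215). Lymphocyte, adipocyte, erythroid and liver lists had 0 toward higher, and 1, 1, 0 and 0 toward lower, of 3, 11, 6 and 12 tested members, with 0 called by DESeq2 in each.

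At single times, with 2 mice against 2, calls were made at CT38 alone, where 3 genes (0.0196%) rose. At CT18, CT22, CT26, CT30 and CT34 edgeR called 0 (0%) genes, while an unadjusted p under 0.05 was reached by 1876 (12.3%), 643 (4.21%), 1226 (8.02%), 1231 (8.05%) and 554 (3.62%) genes, and by 1114 (7.29%) at CT38. DESeq2 over the same groups called 9, 0, 10, 9, 0 and 19 genes in the order of the times. The median standard error at a time was 0.19 to 0.20 on the log2 scale.

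Cebpd, a transcription factor of the acute-phase response that STAT3 and glucocorticoids induce, had 7.69 and 9.28 CPM in control mice and 23.7 and 29.9 CPM in KPC mice at CT38 (log2 fold change 1.66, SE 0.23, adjusted p = 0.00917). B3gnt3 had 6.40 and 6.53 CPM against 11.5 and 15.1 CPM (1.04, adjusted p = 0.0395). Plvap, the diaphragm protein of fenestrated endothelium, had 15.6 and 17.4 CPM against 30.7 and 38.2 CPM (1.06, adjusted p = 0.0499). In all 3 genes the 2 KPC mice lay above the 2 control mice. The call on Cebpd was lost without either control mouse or without KPC replicate 1 of CT38 (adjusted p from 0.121 to 0.427), and those on B3gnt3 and Plvap were lost in 11 and 15 of the 24 fits that left out 1 library. At CT34 Cebpd stood the other way, with 22.5 and 26.3 CPM in control mice and 12.4 and 20.2 CPM in KPC mice (-0.58, adjusted p = 1).

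Several groups varied by time in their medians. Collagen chains were at -0.82 at CT18, -0.54 at CT30 and -0.71 at CT38 but at -0.06 at CT22, the time of KPC CT22 replicate 1. Interferon-induced GTPases were at -0.08, -0.35 and -0.35 at CT18, CT22 and CT26, then at 0.49, 0.38 and 0.80 at CT30, CT34 and CT38, and MHC class I genes followed the same order, from -0.10 at CT18 to 0.58 at CT38. The control libraries with the highest GTPase sums, replicate 2 of CT18 and replicate 1 of CT22 and of CT26, stood at those earlier times. Interleukin-6 and oncostatin genes were at 0.26 at CT18 and 0.52 at CT38 and between -0.02 and 0.12 at the other times. That list holds acute-phase genes that liver also expresses, such as Hp and Fgg, and its summed level was highest (307 FPKM) in KPC CT18 replicate 2, the library with 279 FPKM of liver transcripts, without which the median over all times was 0.142. The part of liver RNA in the CT18 value was not tested. Of 74 ribosomal protein genes, 34 were toward higher at CT18 (median 0.25) and 13 toward lower at CT26 (median -0.13). Of 80 respiratory chain genes, 22 were toward higher at CT18 and 22 toward lower at CT26. Over all 15284 genes, 1019 were toward higher at CT18 and 579 toward lower at CT26. KPC CT18 replicate 2 also had the lowest correlation with the other FoxP1SkmKO libraries (0.9693), and its part in the CT18 counts was not tested. Immediate early genes were at -0.177 at CT18, with 4 of 24 toward lower, and at 0.336 at CT38, with 5 toward higher. Their medians lay between -0.161 and 0.0172 at the other times. Over all genes, 857 were toward lower at CT18 and 600 toward higher at CT38. Whether a list differed between times was not tested.

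**Figure D4:**
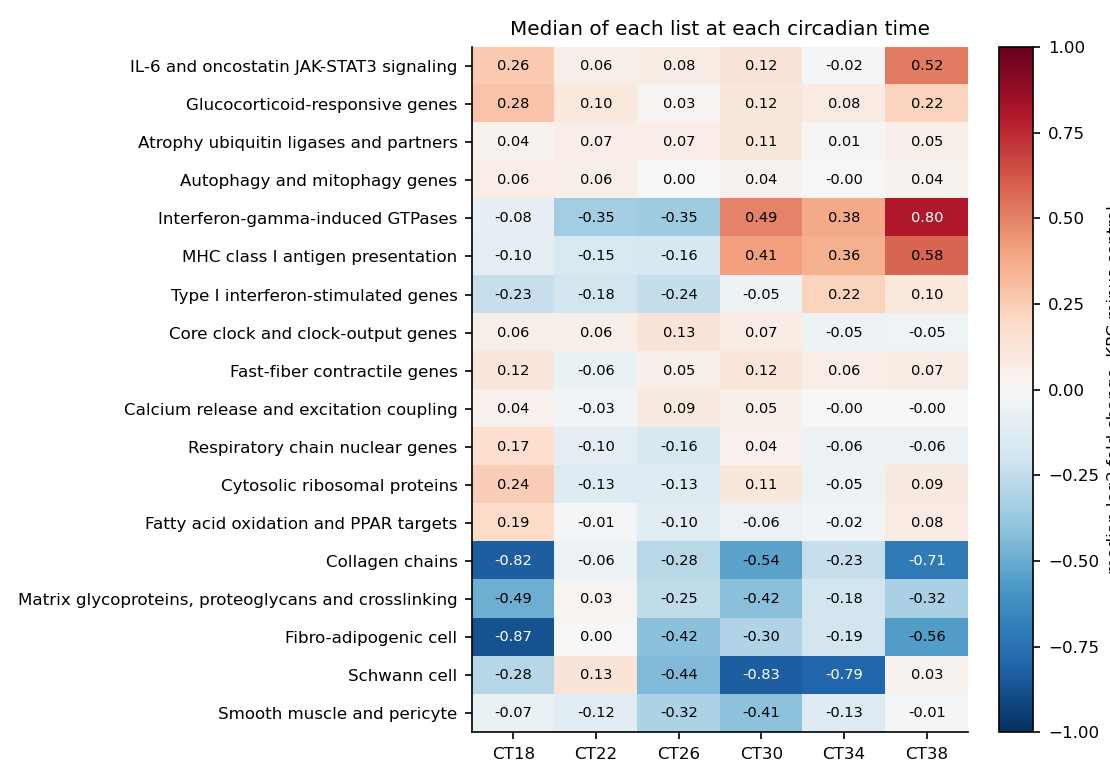
Median log2 fold change of KPC over control for gene lists (vertical axis) at each circadian time (horizontal axis, hours) in FoxP1SkmKO muscle, 2 mice against 2 at each time. Collagen chains are lowest at CT18 (-0.82) and near 0 at CT22 (-0.06), and the GTPases run from -0.35 at CT22 to 0.80 at CT38.

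Dependence of the tumor effect on time was tested with the 5 interaction terms together, and 1 gene passed (0.00654%), with 1163 (7.61%) at an unadjusted p under 0.05. This gene was Rps27rt (chr9:114811434-114811807, minus strand, adjusted p = 0.0316), an intronless copy of the ribosomal protein gene Rps27. At CT26 it had 27.4 and 38.3 CPM in control mice and 7.03 and 8.99 CPM in KPC mice (log2 fold change -2.03), and at CT38 7.05 and 12.2 CPM against 29.9 and 34.4 CPM (1.74). The copy and its parent could share reads, and Rps27 lay the other way at CT26, where it had 10.7 and 13.1 CPM in control mice and 22.2 and 27.3 CPM in KPC mice, unscaled. The sum of both genes ran from 31.0 to 65.6 CPM over the 24 libraries, and how reads were divided between them is not given in the sources used here, so the value is uncertain. The call was lost in 16 of the 24 fits that left out 1 library, with an adjusted p of up to 0.274, and without the 2 libraries with liver transcripts (0.0853).

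The next genes in that test, named by rule, did not pass. Cebpd had an adjusted p of 0.279, Atp5e 0.315 and the fructokinase gene Khk 0.315, followed by Car3 (0.489), Selenbp1 (0.572) and Zfp329 (0.58). A shorter gene model that also bears the symbol Aldoa (ENSMUSG00000114515), next to the main one on chromosome 7, had 0.279. Car3, carbonic anhydrase 3 of slow fibers and fat, ran from -0.52 at CT18 to 0.82 at CT30, and Khk from -0.63 at CT22 to 0.38 at CT26.

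Against WT muscle, the tumor effect of FoxP1SkmKO muscle differed for 0 (0%) of 15637 genes by edgeR and for 0 by DESeq2, with 402 (2.57%) at an unadjusted p under 0.05 toward higher in FoxP1SkmKO and 446 (2.85%) toward lower. The same fit on the 24 WT libraries alone called 238 of 14966 genes (1.59%), 150 higher and 88 lower in KPC mice. In FoxP1SkmKO libraries, which share no mouse with them, 216 of these 238 had the same sign and 0 were called. At an unadjusted p under 0.05, 101 (42.4%) had the same sign and 0 the opposite sign. Of the 150, 51 (34%) were toward higher in FoxP1SkmKO muscle, against 4.64% of all genes. Of the 88, 50 (56.8%) were toward lower, against 5.8% of all genes. The share of all genes with the same sign in both genotypes was not counted. Since the 238 were chosen by their WT values, the WT sizes are a description. Genes higher in WT had medians of 0.526 in WT and 0.17 in FoxP1SkmKO muscle, and those lower had -0.363 and -0.282.

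The 8 genes lowest in p for the difference, named by rule, all had an adjusted p of 0.914. Trim21, a cytosolic antibody receptor and ubiquitin ligase that interferon induces, had 1.37, 2.33 and 3.01 CPM in WT control mice and 2.66, 3.13 and 4.33 CPM in WT KPC mice, against 2.09, 3 and 3.75 and 1.85, 2.54 and 3.58 CPM in FoxP1SkmKO mice. Its log2 fold changes of 0.54 and -0.15 gave a difference of -0.69 (95% interval -1 to -0.37). Ifi47, a GTPase of the interferon list, was at 1.08 in WT and 0.00 in FoxP1SkmKO muscle (difference -1.08). Cog5 (-0.34), Recql5 (-0.32) and Tbc1d2b (-0.37) were lower in FoxP1SkmKO by that measure, and Klhdc3 (0.22), Tmem259 (0.18) and the pseudogene-like copy Vcp-rs (0.34) higher. Rhbdf2, called in FoxP1SkmKO muscle, was at 0.32 there and 0.07 in WT muscle in this fit, a difference of 0.25 (95% interval 0.11 to 0.39, adjusted p = 0.914), so a difference between genotypes was not shown for it.

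Of the pathway lists, the interferon-induced GTPases had the median difference between genotypes farthest from 0. All 15 were called higher in the fit of the WT libraries alone (median 0.733), and 7 of 15 in WT and 0 in FoxP1SkmKO muscle in the fit of all 48 libraries. In the latter their median difference was -0.578, with 9 of 15 toward lower in FoxP1SkmKO at an unadjusted p under 0.05 and 0 called by edgeR or DESeq2. Gbp4 had 6.68, 10.5 and 20.2 CPM in WT control mice and 17.0, 27.9 and 47.5 CPM in WT KPC mice, against 7.24, 10.2 and 39.1 and 9.47, 21.7 and 34.0 CPM in FoxP1SkmKO mice. Their summed level in KPC mice had medians of 40.1 FPKM in WT and 37.9 FPKM in FoxP1SkmKO muscle, and in control mice of 24.5 and 26.7 FPKM, with the highest control library at 34.0 FPKM in WT and 130.5 FPKM in FoxP1SkmKO muscle. Without control CT18 replicate 2 the median difference was -0.444 with 3 of 15 at an unadjusted p under 0.05, and without control CT22 replicate 1 or control CT26 replicate 1 it was -0.52 with 2 and -0.482 with 3. It was -0.683 with 14 of 15 without control CT18 replicate 1. Without the 2 libraries with liver transcripts the median difference was -0.405 with 1 of 15.

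The list medians of collagens and of interleukin-6 signaling had the same sign in both genotypes, although 3 of 31 and 6 of 32 members had opposite signs. Collagen chains had a median of -0.35 in WT and -0.461 in FoxP1SkmKO muscle, with 11 and 0 called in the separate fits of each genotype. In the fit of all 48 libraries 1 of 31 tested collagens was called in each genotype, and the median difference was -0.07. Interleukin-6 genes had medians of 0.354 in WT and 0.21 in FoxP1SkmKO muscle in that fit, and Fos was at 0.76 and -0.12 (difference -0.88, 95% interval -1.56 to -0.21, adjusted p = 0.914). Jak3 was at 0.69 in WT and 0.51 in FoxP1SkmKO muscle (difference -0.18, 95% interval -0.45 to 0.10), Stat3 at 0.30 and 0.22 (-0.08, -0.22 to 0.07), and Col3a1 at -0.70 and -0.69 (0.01, -0.56 to 0.58). Dipk2a was at -0.41 and -0.48 and Cd200 at -0.30 and -0.33 in this fit. Atrogin-1 (Fbxo32) was at 0.31 in WT and 0.47 in FoxP1SkmKO muscle (difference 0.16, -0.26 to 0.58). Apart from that of Fos, the intervals given here allow differences of either sign.

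**Figure D5:**
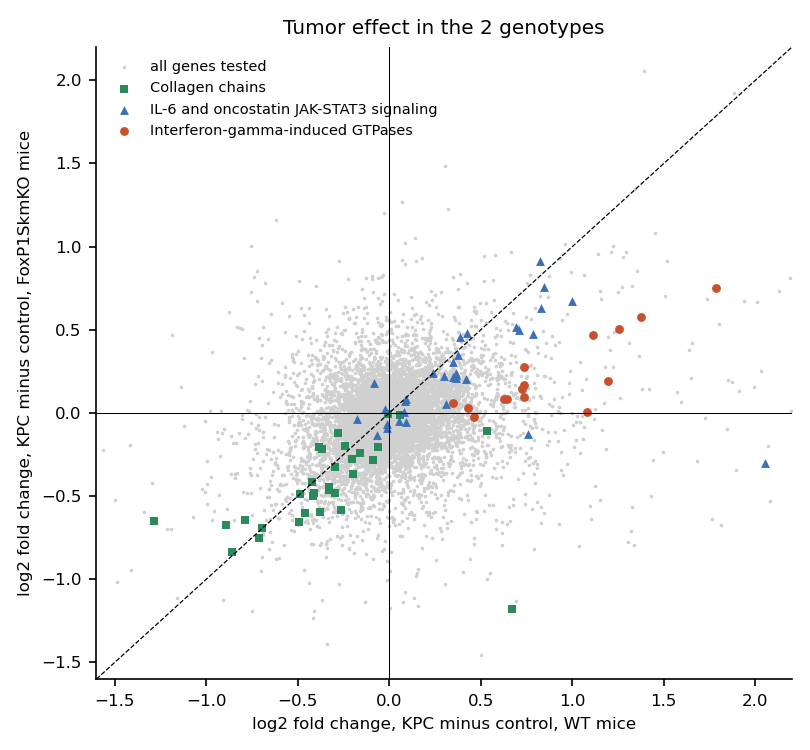
Log2 fold change of KPC over control in WT muscle (horizontal axis) and in FoxP1SkmKO muscle (vertical axis), each point a gene of the fit of all 48 libraries, with 41 genes outside the axes not drawn. Collagen chains, interleukin-6 genes and GTPases are marked, and the GTPases have a median difference of -0.578, FoxP1SkmKO minus WT.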

How the data were processed

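RNA of 48 tibialis anterior libraries was sequenced after poly-T selection. Per the study's methods the authors aligned reads to mm39 with STAR and counted them per gene with HTSeq, while the submitters' processing notes name HISAT2 2.0.5 and DESeq2 1.20.0. The deposited counts are raw whole numbers per gene, in 12 tables of 4 libraries each, which leave out genes with fewer than 2 counts over their 4 libraries. The authors also deposited signal columns, which are counts divided by size factors (not used here), and FPKM, normalized by gene length and library size, from which the counts of the genes left out were recovered as whole reads. FPKM served otherwise for levels summed over lists. Columns of the authors' own comparisons, holding log2 fold changes, p-values and adjusted p-values, were not used. The library text names both directional and non-directional kits and the strand setting is not given in the sources used here, so overlapping and antisense genes are uncertain. Total counts per FoxP1SkmKO library were 14480867 to 20223410.

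Counts were filtered by group (filterByExpr), scaled by TMM and fitted with edgeR 4.0.16 (quasi-likelihood F test, two-sided, R 4.3.3), with Benjamini-Hochberg adjustment over all genes tested and a threshold of 0.05. CPM are counts relative to the scaled library size, on the usual scale. Fits were made for condition with time as a covariate, for condition at each time, for the interaction of condition and time, and over 48 libraries for the difference between genotypes. The fit over all times, the contrast at CT38 and the difference between genotypes were checked on simulated counts. The interaction test and the alternative fits below were not. Standard errors were taken from the fold change and its F value. Alternatives were DESeq2 1.42.0, no filter on low counts, other scalings, covariates and sets of libraries, limma 3.58.1 on log2 FPKM, a replicate block, and leaving out each library. Those without the 2 libraries with liver transcripts, the additive fit of 48 libraries and the lists without single libraries were chosen after seeing the data. Named by rule were Foxp1, the 12 largest called changes each way, up to 4 called members of each list or else its 2 most expressed members, the 8 lowest p for time dependence and for the genotype difference, and up to 3 called genes per time. The members and lists were chosen with earlier results of these data known.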

Additional observations from a re-analysis of the deposited data

Results flagged for a closer look

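The tumor effect on Rps27rt differed between circadian times in FoxP1SkmKO muscle by the interaction test (edgeR adjusted p = 0.0316), with log2 fold changes from -2.03 at CT26 to 1.74 at CT38. The call was lost in 16 of 24 fits that left out 1 library (adjusted p of up to 0.274) and without the 2 libraries with liver transcripts (0.0853). The gene is an intronless copy of Rps27, with which it could share reads, and the part of that sharing in the difference was not tested.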

How the results depend on the processing

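Over all times, 1 gene passed, against 434 with no filter on low counts (176 higher, 258 lower), 92 by DESeq2, 67 with 24 coefficients over 48 libraries, 32 with additive time over 48 libraries, 49 without CT22, 6 without CT26, and 0 without CT38 or without the time covariate. Leaving out 1 library gave 1 to 154 genes: 154 without KPC CT22 replicate 1, 53 without control CT26 replicate 1, 21 without KPC CT34 replicate 1, 14 without control CT22 replicate 1 and 8 without KPC CT26 replicate 2. Such fits leave a group with 1 library, whose spread is assumed to be that of the other groups. Rhbdf2 passed in 41 of 43 alternatives, with log2 fold changes of 0.27 to 0.36.

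At the 6 times in order, no filter gave 596, 141, 165, 301, 86 and 361 genes, and DESeq2 on the 4 libraries of each time 98, 7, 17, 18, 11 and 45. DESeq2 over all groups gave 9 at CT18, 10 at CT26, 9 at CT30 and 19 at CT38, and leaving out the 2 libraries with liver transcripts gave 1 at CT22. Leaving out 1 library gave 0 to 140 at CT18 (140 without KPC replicate 1 of that time, 4 without control replicate 1), 0 to 1 at CT22, 0 to 1 at CT26, 0 to 21 at CT30 (21 without KPC replicate 1), 0 to 2 at CT34 and 0 to 17 at CT38 (17 without KPC replicate 2, 0 without either control library or KPC replicate 1). Time dependence gave 901 genes with no filter, 27 by DESeq2, 0 without the libraries with liver transcripts, and 0 to 4 without 1 library. The genotype difference gave 89 genes with no filter and 0 to 0 without 1 library.

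Members of the pathway lists that passed numbered 0, against 116 with no filter, 21 by DESeq2 and 19 with 24 coefficients. They numbered 13 without CT22, 1 without CT26 and 7 with additive time. Of 165 named gene values, 1 reversed, Akt2 without CT18 (-0.003812 against 0.05). Reversed here means a change of sign in a value that was called or lay more than 1 standard error from 0. Among the 7030 alternatives of named values, another 227 changed sign, in uncalled values within 1 standard error of 0. With no filter each gene's spread was drawn wholly to the common trend, and the cause of the other shifts was not tested.

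Replicate numbers did not pair the mice, since deviations of libraries with the same number correlated between -0.108 and 0.0909 over the 6 times. With a replicate block, 1 gene passed over all times and 1 at CT38, where B3gnt3 (adjusted p = 0.0665) and Plvap (0.0678) no longer did.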
